A study of Mus musculus with 6 samples.

Results

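Nuclear receptors are transcription factors, many of which are switched by small lipid-soluble ligands such as fatty acids, bile acids, retinoids, steroids and thyroid hormone. Their expression was described in 6 arrays of mouse colon, 3 labelled proximal and 3 labelled distal. The members were 44 listed receptor genes, each represented by its probe set with the highest mean over the 6 arrays. Of these, 42 were measured among 18193 genes in all, and Nr1h2 and Nr2e3 were not analysed here. The mice were untreated C57BL/6J females, an inbred strain. The design text says that 3 animals supplied the tissue of both regions, and the age of the animals is not given in the sources used here. All values are log2 expression as deposited, and all differences are distal minus proximal on that scale.

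A receptor of this family binds DNA through a conserved zinc finger domain and recruits coactivators or corepressors through its ligand-binding domain. The retinoid X receptors (RXRs) pair with many of the others, among them the fatty acid sensors of the PPAR group, the bile acid sensor FXR (Nr1h4) and the vitamin D receptor. In the gut these receptors are known for control of bile acid handling, fatty acid oxidation, drug metabolism, and salt and calcium absorption.

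Proximal 1 and distal 3 did not match their labels in profile. For the library labelled proximal 1, Pearson's r over the 18193 genes was 0.993 against distal 1 and 0.977 against proximal 2. For the library labelled distal 3 it was 0.996 against proximal 2 and 0.974 against distal 1. Both are descriptions across genes, which do not serve as replicates. Each result is therefore given for all 6 libraries as labelled and for the 4 libraries distal 1, distal 2, proximal 2 and proximal 3. Those 2 libraries were left out for their own profiles, so the p-values of the 4-library comparison overstate the evidence and describe these 4 libraries only. Epithelial markers were high in every library, with Epcam, Krt8 and Lgals4 among them, and none of the 13 stayed under 6.54, the lower quartile of gene values, throughout. Of the 14 measured pancreatic acinar markers 10 were between 11.6 and 13.31 in the libraries labelled proximal 1 and distal 1, and between 4.26 and 8.74 in the other 4. In whole tissue, fewer cells of a type and less RNA per cell cannot be told apart.

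As labelled and with equal weight for each array, no receptor passed the test. Limma called 0 of 42 members at an adjusted p of 0.05, where 0% of all genes were called, and the smallest adjusted p of a member was 0.824. At an unadjusted p of 0.05 there were 2 members, Nr2c2 and Nr2f1 (4.76% of the members, against 3.05% of all genes). The values of the 3 distal and 3 proximal libraries did not overlap for 5 members (11.9%), against 7.33% of all genes. Of these, Ppard, Esrra, Rorb and Nr2c2 were higher and Nr2f1 was lower in distal libraries. Rorb was below the lower quartile in all 6 libraries and Nr2f1 in 4, so both are limited by signal. Differences ran from -0.76 for Pparg to 0.41 for Esrra. With array weights, an alternative that lowers the influence of arrays far from their group, 16 members passed as labelled (38.1%), against 30.7% of all genes. They include the 6 members described next, with -1.62 for Pparg and -1.37 for Ppara (limma adjusted p of 0.0253 and 0.0288). The weights come from the profiles of the arrays themselves, as did the choice of libraries to leave out. The p-values with array weights can therefore also overstate the evidence, and the shared members are not a separate result.

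In the 4 libraries, 6 receptors differed and 36 did not pass. Pparg, Ppara, Rxra and Nr2c1 were higher in proximal libraries, and Nr5a2 and Esrrg were higher in distal libraries. The 6 members are 14.3% of the family, where limma called 19.2% of all genes. In the direction of proximal this was 4 members, against 11.5% of all genes, and in the direction of distal 2 members, against 7.71%. A difference of at least 1 was seen in 2 members (4.76%) and in 6.59% of all genes. At an unadjusted p of 0.05 limma gave 17 members (40.5%), against 35% of all genes, and the pairs of libraries did not overlap for 28 members (66.7%), against 62.2%. The median difference was 0.015 over the members and -0.045 over all genes. The share of members called was thus below that of all genes at the adjusted threshold and above it at the unadjusted one. With median centring of the arrays, the share of all called genes that were higher in distal libraries moved from 40.1% to 54.7%, and with quantile normalization to 50.3%, and all 6 members passed with the same direction under both.

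**Figure D1:**
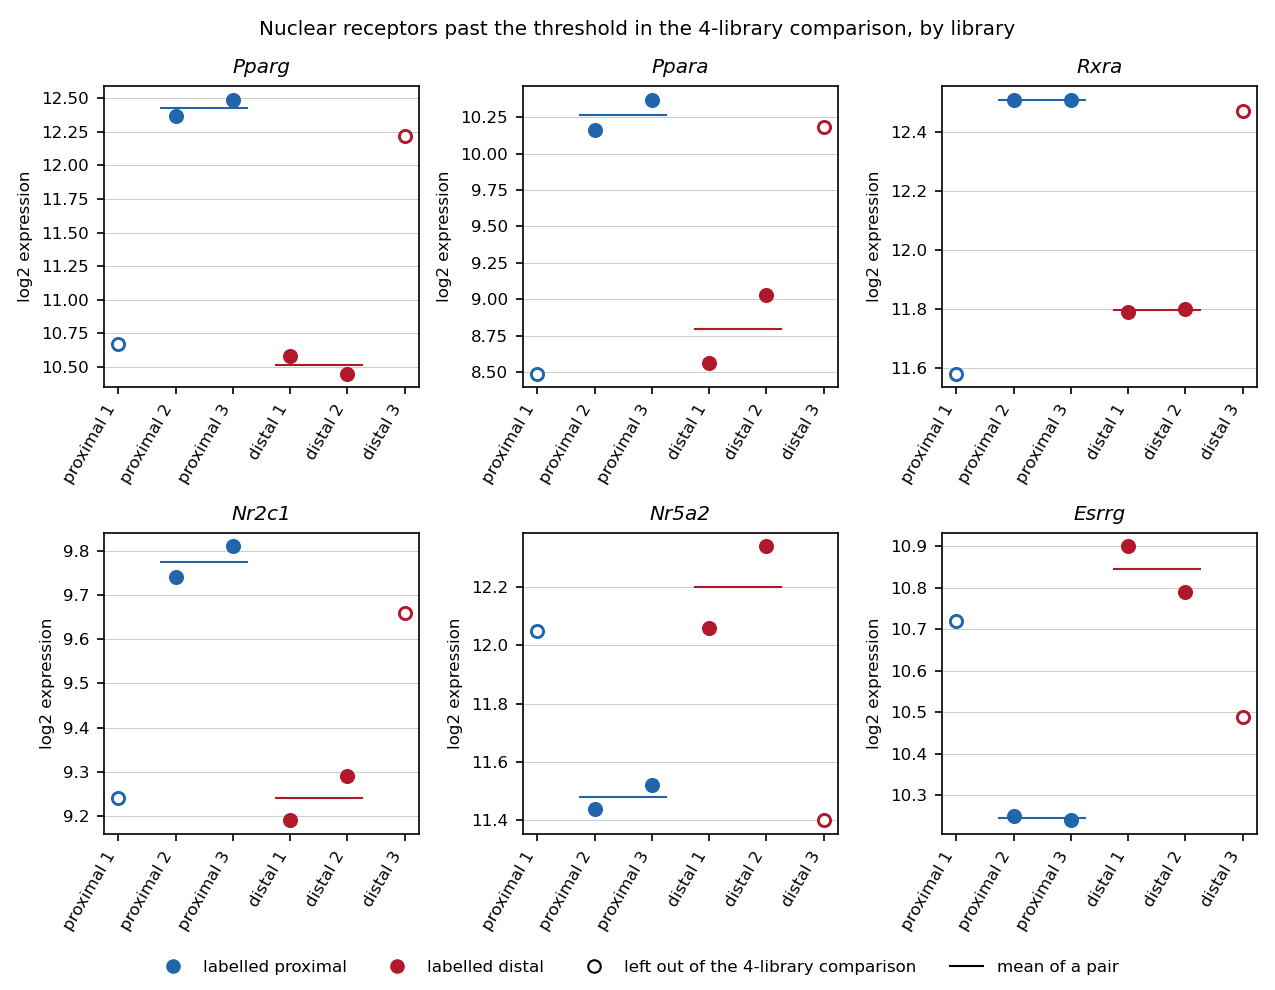
Log2 expression (y axes, a separate scale for each gene) of the 6 receptors past the threshold in each library (x axes), with lines at the means of proximal 2 and 3 and of distal 1 and 2. The open symbols show the library labelled proximal 1 nearer the distal mean and distal 3 nearer the proximal mean in each gene, clearly for Pparg at 10.67 and 12.22, while distal 3 at 10.49 lies between the pairs for Esrrg.

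The promoters of Rxra and of its partners Ppara and Pparg, all higher in proximal libraries, are shown first, to give the sequence context of genes that moved together. They are the 250 bases before the most upstream start that RefSeq lists for each gene (build GRCm38.p6, plus strand), at chr15:85735526-85735775 for Ppara, chr6:115360894-115361143 for Pparg and chr2:27676951-27677200 for Rxra. RefSeq lists 1 start for Ppara, 3 for Pparg and 2 for Rxra, and a promoter was listed for 38 of the 42 members. Capitals mark GGGCGG, the GC box, and AGGTCA, the hexamer that many nuclear receptors bind, each on either strand.
Ppara: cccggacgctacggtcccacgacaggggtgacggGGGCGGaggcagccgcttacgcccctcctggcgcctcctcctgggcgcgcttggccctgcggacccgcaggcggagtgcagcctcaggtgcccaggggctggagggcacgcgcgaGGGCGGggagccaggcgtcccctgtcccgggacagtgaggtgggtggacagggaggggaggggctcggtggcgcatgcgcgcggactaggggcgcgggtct
Pparg: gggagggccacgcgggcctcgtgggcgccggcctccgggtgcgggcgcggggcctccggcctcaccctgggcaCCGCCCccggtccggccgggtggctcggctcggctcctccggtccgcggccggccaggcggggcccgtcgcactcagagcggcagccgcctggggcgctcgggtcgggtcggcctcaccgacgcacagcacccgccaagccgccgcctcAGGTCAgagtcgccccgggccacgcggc
Rxra: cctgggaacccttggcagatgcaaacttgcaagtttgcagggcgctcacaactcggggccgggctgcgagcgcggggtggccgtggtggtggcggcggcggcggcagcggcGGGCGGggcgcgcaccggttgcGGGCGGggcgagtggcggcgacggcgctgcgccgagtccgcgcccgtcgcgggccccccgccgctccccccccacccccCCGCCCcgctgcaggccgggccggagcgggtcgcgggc
GGGCGG was found 2 times for Ppara, 1 time for Pparg and 3 times for Rxra, and 32.7% of the 32851 windows listed for all genes hold it. AGGTCA was found 1 time in these windows, 28 bases before the start of Pparg, and 14.0% of all windows hold it. A direct repeat of AGGTCA with 1 base between the copies, the form PPAR and RXR pairs bind, was in none of the 3 windows and in 0.0335% of all windows. Of the windows not printed, the second of Pparg holds AGGTCA 1 time and the second of Rxra 2 times. The GC content was 76.4% for Ppara, 82.4% for Pparg and 81.2% for Rxra, against a median of 52.4% over all windows. A match is only a description of these letters.

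With 1 probe set per gene, the fatty acid sensors Pparg and Ppara had the largest differences of the family in the 4 libraries. Pparg, which controls differentiation and lipid genes in adipocytes and is also expressed by colonic epithelium, measured 10.67, 12.37 and 12.49 in the libraries with the labels proximal 1 to 3, while the values were 10.58, 10.45 and 12.22 in distal 1 to 3. Proximal 2, proximal 3 and distal 3 were high and the other 3 were low, with no value between 10.67 and 12.22. Distal 1 and 2 were lower than proximal 2 and 3 by a difference of -1.92 (SE 0.12), 3.77-fold, with a limma adjusted p of 0.00104. As labelled, the means were 11.84 ± 1.02 (SD, n = 3) in proximal and 11.08 ± 0.99 (SD, n = 3) in distal libraries, and the difference was -0.76 (SE 0.66, limma adjusted p = 0.824). Pparg has 1 probe set here.

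Ppara, the sensor that drives fatty acid oxidation, measured 8.49, 10.16 and 10.37 in proximal 1 to 3, and 8.56, 9.03 and 10.18 in distal 1 to 3. The same 3 libraries were high as for Pparg. The difference in the 4 libraries was -1.47 (SE 0.19), 2.77-fold, with a limma adjusted p of 0.00795, and as labelled it was -0.42 (SE 0.61, limma adjusted p = 0.859). Its 3 probe sets had the same direction, with -1.26 and -1.06 for the others, and each passed when all probe sets were tested. Ppard, the most widely expressed of the group, was between 10.86 and 10.95 in proximal and between 11.05 and 11.16 in distal libraries. These groups do not overlap, but the difference of 0.25 (SE 0.11) in the 4 libraries did not pass (limma adjusted p = 0.171), and its other probe set measured -0.28.

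Adipocyte markers as a list did not have the arrangement of Pparg, though some of them did. The summed level of 8 measured adipocyte markers was 14.26, 14.51 and 13.76 for proximal 1 to 3 and 13.92, 13.58 and 14.16 in distal 1 to 3. Fabp4 (12.07 to 13.23) and Pck1 (11.88 to 12.26) weigh most in this sum. The single markers were split, with Cidec, Lep, Lipe and Plin4 higher in proximal 3 than in distal 1. Adipoq, Fabp4, Retn and Pck1 were lower there. Of the 8 markers 2 passed, Cidec (-2.68) and Lipe (-1.36), both higher in proximal libraries and both high in proximal 2, proximal 3 and distal 3. Adipoq, the adipocyte hormone adiponectin, measured 10.29 in proximal 3 and 10.95 in distal 1, and its difference of -0.65 did not pass. The summed level of 13 epithelial markers was 17.74, 17.95 and 17.95 in proximal 1 to 3 and 17.76, 17.81 and 17.96 in distal 1 to 3. Of these markers 3 were higher in proximal libraries, Cdx2, Krt20 and Car1. Macrophages, which also express Pparg, had 5 of 13 markers higher in proximal libraries, among them C1qa (-1.4). Their summed level was 14.27, 14.15 and 14.44 in proximal 1 to 3 and 14.07, 13.77 and 14.06 in distal 1 to 3. Lymphocytes had 5 of 11 markers higher in proximal and 3 higher in distal libraries. Of the remaining lists, 2 of 11 smooth muscle markers and 1 of 10 markers of enteric neurons and glia were higher in distal libraries, 1 of 9 endothelial markers was higher in proximal libraries, and 0 of 9 fibroblast markers passed. The share of squamous markers that passed was 1 of 11 and of liver markers 1 of 5, both higher in distal libraries. The part of these cells in the differences of the receptors was not tested.

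Among the retinoid X receptors, the shared partners of the family, 1 of 3 differed. Rxra measured 11.58, 12.51 and 12.51 in proximal 1 to 3 and 11.79, 11.80 and 12.47 in distal 1 to 3. Again proximal 2, proximal 3 and distal 3 were high. The difference in the 4 libraries was -0.72 (SE 0.10), 1.64-fold, with a limma adjusted p of 0.0108, and -0.18 (SE 0.32) as labelled. Of its other probe sets, that at -1.37 passed and that at -0.04 did not. Rxrb was between 11.04 and 11.20 in all 6 libraries, and its difference of 0.01 had a 95% interval of -0.27 to 0.30. Rxrg was between 6.30 and 6.65, close to the lower quartile, where background can mask a difference.

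**Figure D2:**
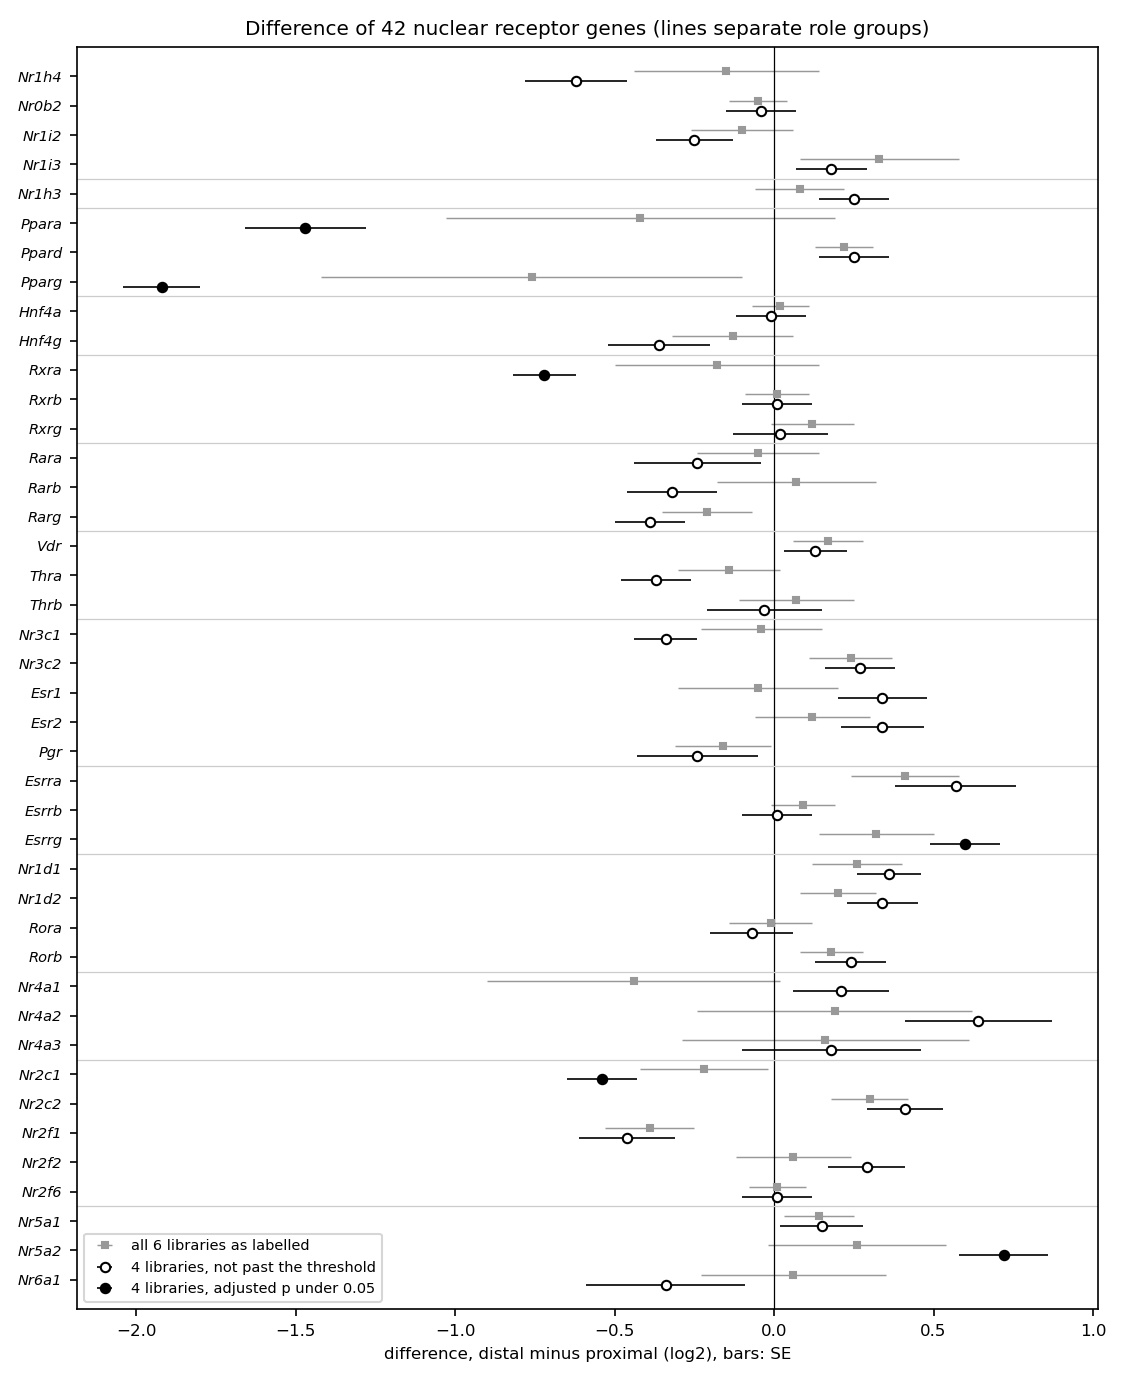
Difference between distal and proximal libraries (x axis, log2, bars are SE) for the 42 measured receptors (y axis), as labelled and in the 4 libraries, with lines between role groups. The 6 filled symbols are the members past the threshold, from -1.92 for Pparg to 0.72 for Nr5a2, and the squares of the comparison as labelled lie nearer 0 for each of them.

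None of the bile acid and drug sensors passed. Nr1h4, the bile acid receptor FXR, measured 11.40, 12.14 and 12.15 in proximal 1 to 3 and 11.73, 11.32 and 12.20 in distal 1 to 3. Its values were arranged as those of Pparg, with proximal 2, proximal 3 and distal 3 high, but the difference of -0.62 (SE 0.16) had a limma adjusted p of 0.0536, and it is at the edge of the threshold. It passed with genes of low mean left out, with the mean of probe sets and with a trended and robust variance prior. When each probe set was tested it also passed (limma adjusted p = 0.0487). With quantile normalization or median centring it did not pass. Nr1i2, the xenobiotic sensor PXR, differed by -0.25 (SE 0.12), and its second probe set by -0.65, which passed when all probe sets were tested (adjusted p = 0.0247). Nr1i3, the related sensor CAR, was 7.33 in proximal 1 and between 7.96 and 8.35 elsewhere. Nr0b2, the corepressor SHP that FXR induces in liver, was between 5.70 and 5.83, below the lower quartile in all libraries. Nr1h3, the oxysterol receptor LXR alpha, was between 8.84 and 9.28 and did not pass (difference 0.25, SE 0.11).

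The HNF4 receptors, which maintain the enterocyte programme, gave values that depend on the probe set. The probe set used for Hnf4a was between 14.21 and 14.33 in all 6 libraries, and its difference was -0.01 with a 95% interval of -0.28 to 0.25. The other 3 probe sets of Hnf4a differed by -0.30, -0.84 and -0.56. The latter 2 passed when all probe sets were tested, with adjusted p of 0.00855 and 0.0262. By their names, the probe set used and the one at -0.84 are not specific to a single transcript. Hnf4g differed by -0.36 (SE 0.16), with -0.72 and -0.14 for its other probe sets, and none of the 3 passed.

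The receptors for retinoic acid, vitamin D and thyroid hormone did not pass. Rara, Rarb and Rarg differed by -0.24, -0.32 and -0.39. Vdr, the vitamin D receptor, was between 13.50 and 13.87, and its difference of 0.13 had a 95% interval of -0.13 to 0.39. Thra, a thyroid hormone receptor, differed by -0.37 (SE 0.11) with the probe set used and by 0.27 and 0.40 with the others, so its probe sets disagree in direction. Thrb was at most 5.58, below the lower quartile in all libraries.

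The corticosteroid receptors had differences of opposite sign, and neither passed. Nr3c1, the glucocorticoid receptor, measured 12.05, 12.56 and 12.53 in proximal 1 to 3 and 12.18, 12.22 and 12.63 in distal 1 to 3, a difference of -0.34 (SE 0.10, limma adjusted p = 0.0748). Of its 6 probe sets, 2 others passed when all were tested, with differences of -0.60 and -0.46, and 2 had the opposite sign. Nr3c2, the mineralocorticoid receptor, measured 11.97, 12.17 and 12.18 in proximal 1 to 3 and 12.51, 12.37 and 12.15 in distal 1 to 3. Its difference was 0.27 (SE 0.11, limma adjusted p = 0.16), with a 95% interval of -0.01 to 0.54. The oestrogen receptors Esr1 and Esr2 differed by 0.34 each and did not pass, and the progesterone receptor Pgr was between 5.14 and 5.67.

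Among the oestrogen-related receptors, orphan receptors that control mitochondrial genes, Esrrg differed. It measured 10.72, 10.25 and 10.24 in proximal 1 to 3 and 10.90, 10.79 and 10.49 in distal 1 to 3. The difference in the 4 libraries was 0.60 (SE 0.11), 1.52-fold, with a limma adjusted p of 0.0203, and 0.32 (SE 0.18, limma adjusted p = 0.824) as labelled. A second probe set of Esrrg separated the libraries far more widely, with 9.81, 7.91 and 7.67 in proximal 1 to 3 and 10.82, 10.43 and 7.54 in distal 1 to 3. Its difference of 2.84 (SE 0.17, limma adjusted p = 0.00104 over all probe sets) is the largest of any receptor probe set here. The third was below the lower quartile in all 6 libraries and differed by -0.10. Esrra differed by 0.57 (SE 0.19) and did not pass, and its other probe set differed by -0.31. Esrrb was between 5.57 and 5.82.

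Nr5a2 (LRH-1), a receptor of intestinal crypt cells and of pancreatic acinar cells, was higher in distal libraries. It measured 12.05, 11.44 and 11.52 in proximal 1 to 3 and 12.06, 12.34 and 11.40 in distal 1 to 3. The difference in the 4 libraries was 0.72 (SE 0.14), 1.65-fold, with a limma adjusted p of 0.0233, and 0.26 (SE 0.28) as labelled. All 4 probe sets had the same direction, and a second, at 0.84, passed. Of the 14 acinar markers 3 passed, Sycn (1.4), Cela1 (1.74) and Clps (2.66), all higher in distal libraries. None of these is among the 10 markers set apart earlier. Those 10 differed by 1.54 to 3.52 (SE from 1.42 to 2.38) and did not pass, and of the 4 libraries only distal 1 was high for them. The summed acinar level was highest in distal 1. It was 16.96 in proximal 1, 15.94 in distal 2, and between 15.29 and 15.49 in proximal 2, proximal 3 and distal 3. Outside proximal 1 and distal 1, Zg16 (14.5 to 14.6 in every library) and Sycn (at least 13.14) weigh most in this sum. The value of distal 2 therefore does not stand for the 10 markers set apart earlier. Nr5a2 was highest in distal 2, where these 10 markers were low and Sycn and Cela1 were high. In proximal 1 and distal 1, where the 10 markers were high, Nr5a2 was also high, at 12.05 and 12.06. With 1 of the 4 libraries left out, the difference of Nr5a2 ran from 0.58 without distal 2 to 0.86 without distal 1. The part of acinar cells in this difference was not tested. Nr5a1 was between 5.75 and 6.08, below the lower quartile. Nr6a1 was between 8.92 and 9.85 and did not pass. Another of its probe sets, at -0.56, passed when all probe sets were tested. That probe set was between 5.30 and 6.57 and below the lower quartile in 5 libraries, so background limits it.

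The COUP and testicular orphan receptors, most of which repress transcription, had 1 of 5 measured members past the threshold. Nr2c1 measured 9.24, 9.74 and 9.81 in proximal 1 to 3 and 9.19, 9.29 and 9.66 in distal 1 to 3, a difference of -0.54 (SE 0.11, limma adjusted p = 0.0284) in the 4 libraries and -0.22 (SE 0.20) as labelled. Of its 5 probe sets only this one passed, and the mean of all of them, -0.20, did not (adjusted p = 0.226). Its relative Nr2c2 measured 12.07, 11.93 and 11.88 in proximal 1 to 3 and 12.21, 12.43 and 12.13 in distal 1 to 3. These groups do not overlap, and the difference of 0.41 (SE 0.12, limma adjusted p = 0.0735) did not pass with the probe set used. Of its other probe sets 2 passed, with 0.74 and 0.89. Nr2f2, a receptor of mesenchyme and endothelium, differed by 0.29 (SE 0.12) and did not pass, but its 6 probe sets all had the same direction and 1, at 0.83, passed. Nr2f1 differed by -0.46 (SE 0.15) and did not pass, with values between 5.96 and 6.61, below the lower quartile in 4 libraries. Nr2f6 was between 13.20 and 13.29 in all 6 libraries.

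**Figure D3:**
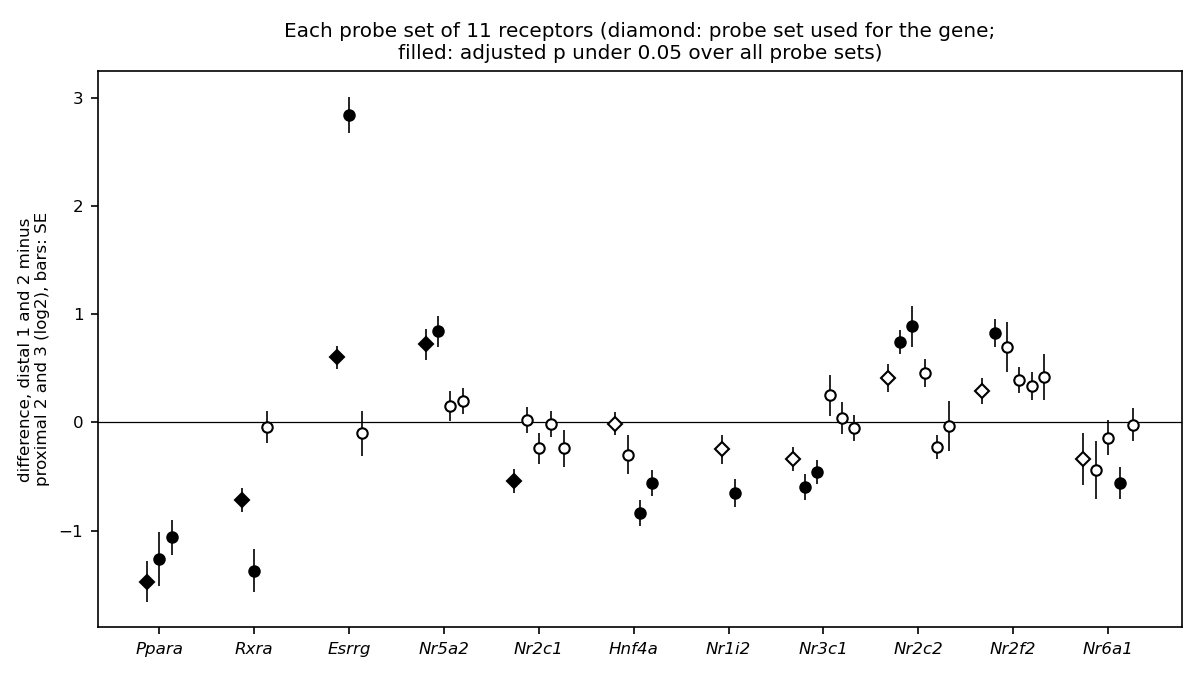
Difference between distal 1 and 2 and proximal 2 and 3 (y axis, log2, bars are SE) for each probe set of 11 receptors (x axis), where diamonds are the probe sets used for the gene and filled symbols passed over all probe sets. Ppara is filled throughout, Esrrg has 1 probe set at 2.84, and Hnf4a, Nr1i2, Nr3c1, Nr2c2, Nr2f2 and Nr6a1 have filled probe sets other than the one used.

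Over all 112 probe sets of the 42 members, 21 passed in the 4 libraries (18.8%), where 21.6% of all probe sets did. They belong to 13 members. Beside the 6 above these are Nr1h4, Nr1i2, Hnf4a, Nr3c1, Nr2c2, Nr2f2 and Nr6a1. Of the 27 members with more than 1 probe set, 13 had the same direction in each.

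The clock-linked receptors are repressors (Nr1d1 and Nr1d2, the REV-ERBs) and activators (Rora and Rorb) that compete for the same DNA element. Nr1d1 measured 11.22, 11.31 and 11.31 in proximal 1 to 3 and 11.69, 11.65 and 11.28 in distal 1 to 3, a difference of 0.36 (SE 0.10, limma adjusted p = 0.0669). After quantile normalization or median centring it passed. Nr1d2 differed by 0.34 (SE 0.11, limma adjusted p = 0.0892). Rora was between 9.46 and 9.85 and Rorb was at least 4.31 and below the lower quartile throughout. Of 14 clock genes 3 passed. Cry1, a clock repressor, was higher in proximal libraries (-1.18, SE 0.14), and Per3 (0.99, SE 0.14) and Clock (0.45, SE 0.11) were higher in distal libraries. The hour of tissue collection is not given in the sources used here.

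The NR4A receptors, which are induced within minutes by stress and handling, varied between libraries of the same label, and none passed. Nr4a1 measured 9.49 in proximal 1 and between 7.74 and 8.20 in the other libraries. Nr4a2 measured 10.30, 8.68 and 8.93 in proximal 1 to 3 and 9.14, 9.75 and 9.58 in distal 1 to 3. Nr4a3 measured 9.63, 8.78 and 8.29 in proximal 1 to 3 and 8.37, 9.07 and 9.74 in distal 1 to 3. Proximal 1 was thus the highest library for Nr4a1 and Nr4a2, and distal 3 for Nr4a3. The differences in the 4 libraries were 0.21, 0.64 and 0.18. Of the 20 immediate early genes, 6 were highest in proximal 1, namely Fos, Fosb, Egr1, Egr2, Klf2 and Dusp1, and 7 were lower there than in both proximal 2 and proximal 3, namely Fosl1, Jun, Junb, Ier3, Atf3, Zfp36 and Maff. Fosb was 8.44 in proximal 1 and at most 7.78 elsewhere, and Klf2 was 10.14 against at most 9.54. Fos was between 12.91 and 13.33, and Egr1 was 12.81 in proximal 1, between 12.53 and 12.63 in proximal 2, proximal 3 and distal 3, and 11.51 and 11.79 in distal 1 and 2. In the 4 libraries 6 of the list were higher in proximal libraries and 14 did not pass, with Fosl1 (-3.02, SE 0.27), Atf3 (-0.94), Egr1 (-0.92) and Maff (-0.95) leading. Fosl1 was below 6.54 in distal 1 and 2, so background limits its difference.

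**Figure D4:**
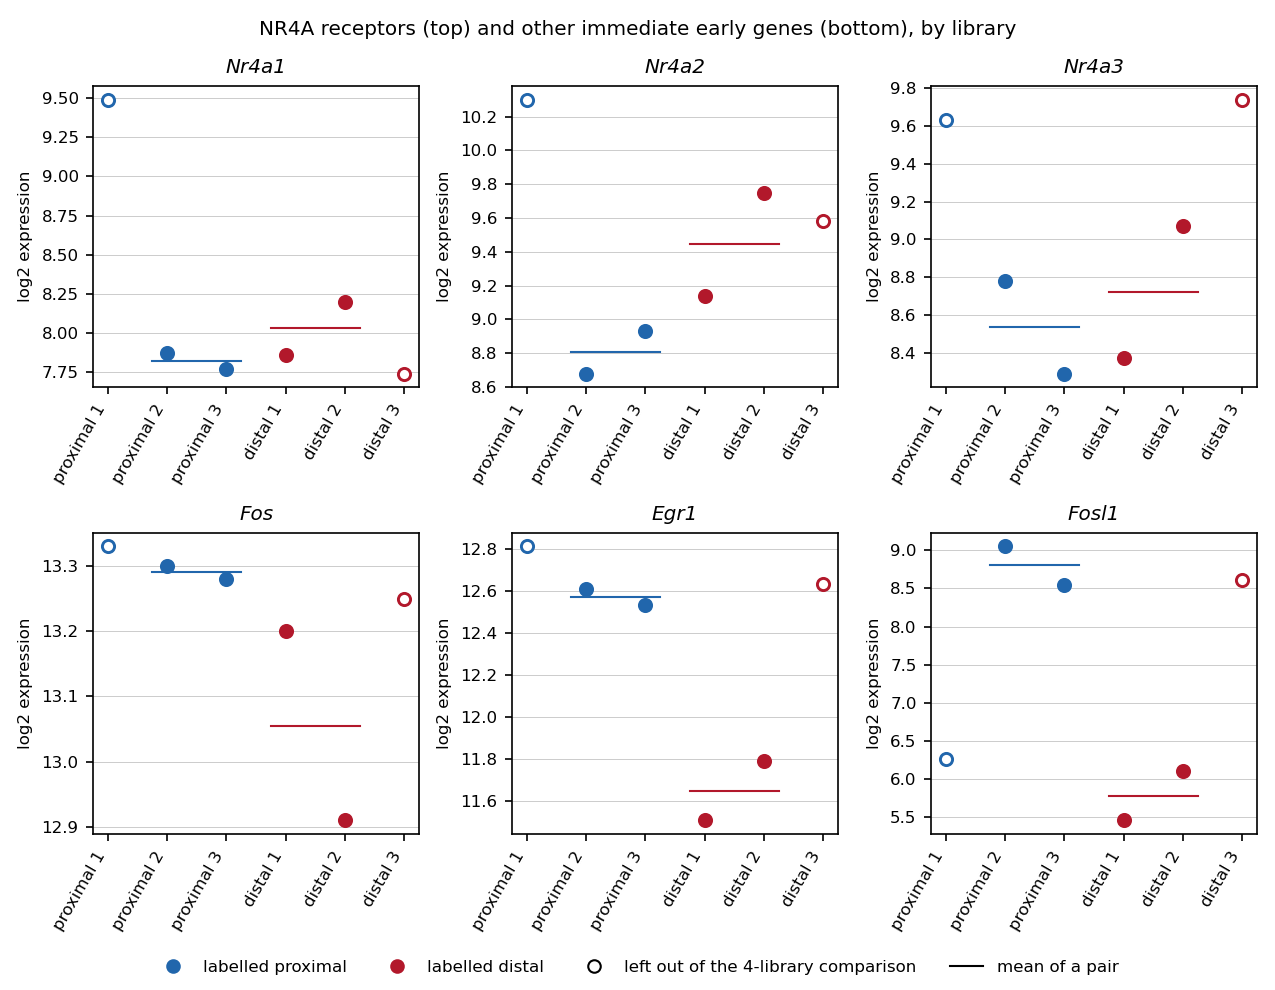
Log2 expression (y axes, a separate scale for each gene) of the 3 NR4A receptors and of Fos, Egr1 and Fosl1 in each library (x axes), with lines at the means of proximal 2 and 3 and of distal 1 and 2. Nr4a1 stands at 9.49 in proximal 1 against at most 8.20 elsewhere, while Fosl1 is high in proximal 2, proximal 3 and distal 3.

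Genes linked to these receptors, as targets or through the same pathway, were described from lists in the 4 libraries. Each list is set beside the 19.2% of all genes called and the median of -0.045 over all genes. As labelled, 0 genes of these lists passed. The lists share some genes, such as Creb3l3, Fabp1, Fabp2, Abcc3 and Aldh1a1, and many of these genes also have other regulators.

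Targets of the fatty acid sensors were higher in proximal libraries where they passed. Of 20 measured PPAR alpha and delta targets 10 passed, each higher in proximal libraries, and the median difference was -1.07. They include the peroxisomal thiolase Acaa1b (-5.18, SE 0.16), the pantetheinase Vnn1 (-4.07, SE 0.14), the transcription factor Creb3l3 (-2.55, SE 0.11) and the fatty acid transport protein Slc27a2 (-2.71, SE 0.15). Acaa1b measured 7.41, 12.21 and 12.42 in proximal 1 to 3 and 6.96, 7.31 and 12.23 in distal 1 to 3, the same 3 libraries being high as for Ppara. Of 14 measured HNF4 target genes 10 passed with proximal and 1 with distal libraries higher, at a median of -0.91. Beside Creb3l3, the lipid carriers Apoa1 (-5.66, SE 0.31), Mttp (-2.44, SE 0.21) and Apoc3 (-1.57, SE 0.17) lead this list.

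Genes of bile acid handling and targets of the drug sensors went the same way where they passed. Of 10 genes of FXR and bile acid handling 6 passed, each higher in proximal libraries, with a median of -1.03, while Nr1h4 itself missed the threshold. The leading ones are the bile acid transporters Slc10a2 (-3.86, SE 0.14), Slc51a (-6.92, SE 0.29) and Slc51b (-1.58, SE 0.13) and the binding protein Fabp6 (-3.06, SE 0.15). Of 12 measured PXR and CAR targets 8 passed, each higher in proximal libraries, with a median of -0.82, led by Aldh1a1 (-2.06), Cyp3a25 (-5.64), Cyp3a13 (-1.39) and Cyp3a11 (-2.31). Slc10a2, Slc51a, Cyp3a25 and Cyp3a11 lay below 6.54 in the distal pair, where background can mask lower levels, and Cyp3a11 did so in all 6 libraries. Of 11 LXR targets, a list that holds Nr1h3 itself, 2 were higher in each direction, Abcg5 (1.05) and Abcg8 (0.67) in distal and Apoe (-0.75) and Lpcat3 (-0.57) in proximal libraries.

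Targets of the steroid, vitamin D and retinoic acid receptors were split. Of 16 corticosteroid targets 4 were higher in each direction. Those with the smallest adjusted p were Fxyd4, a regulator of the sodium pump (8.34, SE 0.16), the sodium channel subunit Scnn1a (1.22, SE 0.11), the chaperone Fkbp5 (-1.03, SE 0.13) and Hsd11b1, an enzyme that regenerates active glucocorticoid (-0.99, SE 0.14). Fxyd4 measured 5.14 and 4.99 in proximal 2 and 3, below 6.54, so background limits its difference. Of 8 vitamin D targets 3 were higher in distal libraries, the calcium channel Trpv6 (2.56, SE 0.16), the calcium binding protein S100g (1.01, SE 0.15) and Cldn12 (0.55), and 1, Slc30a10 (-1.27), was higher in proximal libraries. Trpv6 too was below 6.54 in proximal 2 and 3, at 5.89 and 5.90. Of 19 genes of retinoic acid response and metabolism 4 passed with distal and 5 with proximal libraries higher, led by Adh1 (2.26), Aldh1a1 (-2.06), Rdh1 (-3.90) and Rdh16 (1.93). Rdh1 was below 6.54 in distal 1 and 2, at 3.56 and 4.21.

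Of 22 measured coregulators 5 passed with distal and 1 with proximal libraries higher, 27.3% against 19.2% of all genes. Ppargc1a, a coactivator of the PPAR and oestrogen-related receptors, measured 11.39, 10.72 and 10.78 in proximal 1 to 3 and 11.57, 11.65 and 10.86 in distal 1 to 3, a difference of 0.86 (SE 0.11, limma adjusted p = 0.00734). Its relative Ppargc1b (0.60, SE 0.11) and the coactivator Ncoa3 (0.57, SE 0.10) were also higher in distal libraries. Ncoa7 was higher in proximal libraries (-2.28, SE 0.14). Of the listed receptors outside the family members described here, Nr0b1 and Nr2e1 were measured, both below the lower quartile in all libraries.

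**Figure D5:**
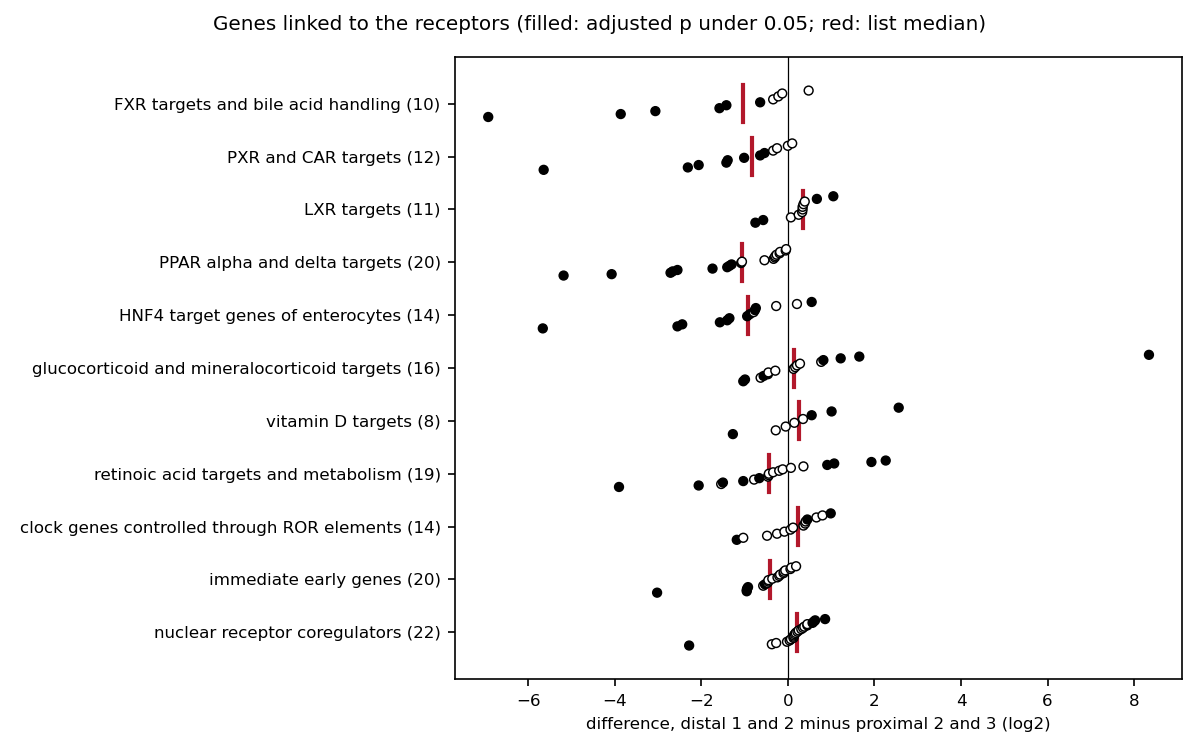
Difference between distal 1 and 2 and proximal 2 and 3 (x axis, log2) of each measured gene in 11 lists linked to the receptors (y axis, number of genes in brackets), filled where the gene passed and with the list median in red. The PPAR and FXR lists have medians of -1.07 and -1.03, and the LXR, vitamin D and coregulator lists lie at 0.34, 0.25 and 0.20.

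In each of the 6 receptors that passed, proximal 1 lay closer to distal 1 and 2, and distal 3 closer to proximal 2 and 3. Over all genes called in the 4 libraries these shares were 75.6% and 90.1%. Of all 42 members, 27 had proximal 1 closer to the distal pair and 26 had distal 3 closer to the proximal pair. Proximal 1 and distal 3 were left out for profiles of this kind, so their placement is not a separate result. Over the 42 members the largest range between libraries was 2.04, for Pparg, and the smallest 0.09, for Nr2f6. A range of at least 1 was seen in 6 members (14.3%) and in 13.7% of all genes. Of the members 6 were below the lower quartile in all 6 libraries.

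Leaving out 1 of the 4 libraries left 1 residual degree of freedom among the samples, with the spread taken from the remaining pair, so a call lost there says little about that library. The differences kept their direction. They ran from -1.98 to -1.85 for Pparg, from -1.70 to -1.24 for Ppara, from -0.72 to -0.71 for Rxra, from -0.59 to -0.49 for Nr2c1, from 0.58 to 0.86 for Nr5a2 and from 0.54 to 0.65 for Esrrg. Without proximal 2 and without proximal 3, limma called 0 of 42 members, and without distal 2 it called 1, Pparg. Without distal 1 it called 4, Pparg, Rxra, Nr5a2 and Nr1h4. Over all genes the count fell from 3494 to 165, 146, 405 and 1633 in that order.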

How the data were processed

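Gene expression was measured on 6 single-colour arrays, 1 per library. The deposited values are log2 expression per probe set, made by the authors with RMA in Partek 6.5, per the submitters' processing notes. The scale rests on that note and on the values, which run from 2.91 to 15.07. Because RMA evens out the distributions of arrays, a change common to most genes would be hidden. RNA was amplified with NuGEN kits before labelling, per the labels' protocols. Precision is limited by the number of arrays.

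Of 45101 probe sets, 64 controls were left out, 34945 have 1 gene symbol, 932 have several and 9160 have none. Symbols of 34741 were updated by gene identifier through a RefSeq table (GRCm38.p6), and 204 stayed as annotated. Each of 18193 genes was represented by its probe set with the highest mean. Groups come from the sample titles. The contrast of distal and proximal was fitted with limma 3.58.1 under R 4.3.3 (lmFit, eBayes, two-sided), with Benjamini-Hochberg adjustment over all genes, a threshold of 0.05 and no replicate block. The fit was tested on simulated data. The sources do not say which animal gave which library, so p-values cover only the spread among these libraries.

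The members, lists, tests and alternatives were chosen with earlier results of these data known. Members past the threshold in either comparison are given in full, and up to 4 genes per target list are named by smallest adjusted p. The other members, the marker genes, Fos and the genes named as shared between lists were named after their values were seen. Summed levels are log2 of the sum of linear values. Alternatives changed the low-value filter, the rule for probe sets, the normalization, the variance prior, array weights, the replicate block and the libraries included.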

Additional observations from a re-analysis of the deposited data

How the results depend on the processing

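As labelled, the count of 0 members held in every alternative except array weights, where 16 members (38.1%) and 5579 genes (30.7%) passed. Those weights were set by the arrays' own profiles, so the counts with array weights can overstate the evidence. In the 4 libraries the count of 6 became 12 when 9099 genes with a mean of at least 9.31 were tested. That is 48% of 25 members, against 35.6% of those genes. It became 11 with a trended and robust variance prior (26.2%, against 25.2% of all genes). When each probe set was tested it was 13, with 18.8% of member probe sets called, against 21.6% of all probe sets. At an adjusted p of 0.01 it was 2, where 1112 of 18193 genes were called. All 6 were among the 12, the 11 and the 13. With 1 library left out the count ran from 0 to 4. It was 7 with quantile normalization (16.7%, against 19% of all genes) and 8 with median centring (19%, against 18.9%). With the mean of probe sets it was 8 (19%, against 21.3%), of which 5 were among the 6. With 1 value per gene, no direction of the 6 members was reversed in either comparison, but single probe sets of Esrrg (-0.10) and Nr2c1 (0.02) had the opposite sign. With the replicate number as a block, limma called 0 members as labelled. Deviations from the group means of same-numbered libraries correlated at 0.677, -0.448 and 0.678. Such signs follow the libraries that go against their labels, whatever the number, so they do not tell whether the numbers pair the samples, and the labels do not say so. No paired analysis was possible for the 4 libraries because they share only 1 number. Members near background, such as Rorb, Pgr and Thrb, are limited by signal.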
